A study of Mus musculus with 25 samples.

Results

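The complement genes C1qa, C1qb, C1qc, C1ra, C1s1, C3, C3ar1, C5ar1 and Serping1 were followed across macrophages and fibroblasts sorted from mouse lung and skin. They were chosen by gene symbol, and all 9 were found among the 11867 genes of the lung table and the 12661 genes of the skin table. The question was which cell type supplies which component, and how each component stood in neutrophil-depleted mice against their controls.

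Bulk RNA-seq was available from 25 libraries of C57BL/6 mice, 12 from lung and 13 from skin. Depleted mice carried Mrp8_CRE and Rosa26_DTR, and control mice carried Mrp8_WT and Rosa26_DTR, so the diphtheria toxin receptor allele was present in both genotypes. Both genotypes also received diphtheria toxin into the peritoneum at 10 µg/kg for 7 days. Mrp8 is another name of S100a8, a gene that neutrophils express at a high level and whose promoter can also be active in other myeloid cells. Lung held 3 libraries of each genotype and cell type. Skin held 4 libraries of depleted macrophages, 3 of depleted fibroblasts and 3 of control fibroblasts, and 3 labelled as control macrophages. Lung macrophages were sorted as CD45+ CD68+ F4/80+ CD11c- cells with high CD11b, and skin macrophages as CD45+ CD11b+ CD68+ F4/80+ cells. Fibroblasts were sorted as PDGFRA+ cells without CD45, CD31 or EPCAM, in skin with CD90.1 as well. None of the 9 genes encodes a marker of these gates. The labels do not say whether replicates came from separate animals, so p-values measure the spread between these libraries, which may be technical.

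Of the libraries labelled skin control macrophages, replicates 1 and 5 had a fibroblast profile and were kept apart from every result below unless stated. Ptprc, which encodes CD45, was at 0.277 and 0.209 in them, against 522 to 878 in the 4 depleted skin macrophage libraries and 362 in control replicate 3. Col1a1, a collagen of fibroblasts, was at 15309 and 28883 in them, against 61.2 to 241 in depleted skin macrophages and 267 in control replicate 3. Control skin macrophages are therefore 1 library. The values are a linear normalised signal. Depth was 124075 to 385925 estimated reads per lung library, where 1 read is worth 2.997 to 6.81 units, and 6553115 to 27259903 per skin library, where 1 read is worth 0.0371 to 0.162 units. Each value holds an offset of 0.5 reads, so the lowest values of a library stand for 0 reads.

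Complement is a cascade of blood and tissue proteins that marks microbes and debris for removal. In its classical pathway C1q, built from the A, B and C chains, recognises a target, the proteases C1r and C1s bound to it start the cascade, and C3 is cleaved to coat the target and release the peptide C3a. C3a and the later peptide C5a act on cells through the receptors encoded by C3ar1 and C5ar1, and Serping1 encodes the C1 inhibitor, which blocks C1r and C1s. Macrophages are known as a tissue source of C1q, and fibroblasts as a source of C1r, C1s, C3 and the C1 inhibitor.

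All genes lie on GRCm38. C1qa (chromosome 4, 136895917 to 136898803), C1qc (136889804 to 136893065) and C1qb (136880129 to 136886187) are neighbours on the minus strand. C1ra (chromosome 6, 124512405 to 124523443, plus strand) and C1s1 (124530345 to 124542359, minus strand) are also neighbours, and C3ar1 lies on the same chromosome at 122847138 to 122856161 on the minus strand. C3 (chromosome 17, 57203970 to 57228136), C5ar1 (chromosome 7, 16246743 to 16259540) and Serping1 (chromosome 2, 84765387 to 84775444) are on the minus strand. Promoter sequences from RefSeq, build GRCm38.p6, matched 7 of the 9 genes, all but C1qa and Serping1. The 250 bases upstream of the RefSeq start are shown for a pair of macrophage-high genes, C1qb (chr4:136886201-136886450, minus strand) and C1qc (chr4:136892915-136893164, minus strand), and for a pair of fibroblast-high genes, C1s1 (chr6:124542360-124542609, minus strand) and C3 (chr17:57228137-57228386, minus strand). Capitals mark a match to 1 of 4 motifs searched on both strands, the PU.1 core GAGGAA, the core of the interferon-stimulated response element, the STAT core TTCNNNGAA and the C/EBP site TTGCNNAA.
C1qb: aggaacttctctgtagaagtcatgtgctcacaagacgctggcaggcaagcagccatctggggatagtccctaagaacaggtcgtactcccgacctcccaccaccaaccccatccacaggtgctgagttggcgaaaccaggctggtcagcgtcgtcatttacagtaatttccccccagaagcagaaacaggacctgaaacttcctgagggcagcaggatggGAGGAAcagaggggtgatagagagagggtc
C1qc: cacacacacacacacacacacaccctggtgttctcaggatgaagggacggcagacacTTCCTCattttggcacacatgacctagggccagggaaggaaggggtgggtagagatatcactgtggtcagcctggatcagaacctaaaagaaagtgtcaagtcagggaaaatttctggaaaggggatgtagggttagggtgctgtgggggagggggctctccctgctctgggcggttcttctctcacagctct
C1s1: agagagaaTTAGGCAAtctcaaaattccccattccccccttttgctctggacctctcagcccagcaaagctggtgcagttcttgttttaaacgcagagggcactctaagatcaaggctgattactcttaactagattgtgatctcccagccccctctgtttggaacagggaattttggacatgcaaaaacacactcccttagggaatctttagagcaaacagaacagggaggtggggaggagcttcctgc
C3: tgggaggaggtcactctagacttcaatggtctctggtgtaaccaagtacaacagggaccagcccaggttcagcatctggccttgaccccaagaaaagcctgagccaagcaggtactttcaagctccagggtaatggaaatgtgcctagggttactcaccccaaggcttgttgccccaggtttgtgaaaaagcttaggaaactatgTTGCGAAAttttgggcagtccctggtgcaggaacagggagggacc
GAGGAA was found in C1qb, 30 to 25 bases upstream of the start, and on the other strand in C1qc, 193 to 188 bases upstream. TTGCNNAA was found in C3, 45 to 38 bases upstream, and on the other strand in C1s1, 242 to 235 bases upstream. No matches overlapped, and none of the 4 motifs was in the windows of C1ra, C3ar1 and C5ar1. The RefSeq starts differ from the gene coordinates given above. The windows of C1qc, C1ra, C3ar1 and C5ar1 therefore lie partly inside those coordinates. Among 27025 promoters of the same length, 23.1% held GAGGAA, 9.55% TTGCNNAA, 7.18% TTCNNNGAA and 3.04% the interferon-stimulated response element core. These matches describe the letters and show no binding.

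In both organs the genes split by cell type. The 3 C1q chains and the receptors C3ar1 and C5ar1 were higher in macrophages, and C1ra, C1s1, C3 and Serping1 were higher in fibroblasts. All 9 passed limma's test at a Benjamini-Hochberg adjusted p below 0.05 in lung, where 36.6% of all genes tested passed, and all 9 passed in skin, where 27.1% passed. Macrophage and fibroblast libraries did not overlap for any of the 9 genes in either organ, beside 19.5% of all genes tested without overlap in lung and 22% in skin. The 9 were chosen with this split known.

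**Figure D1:**
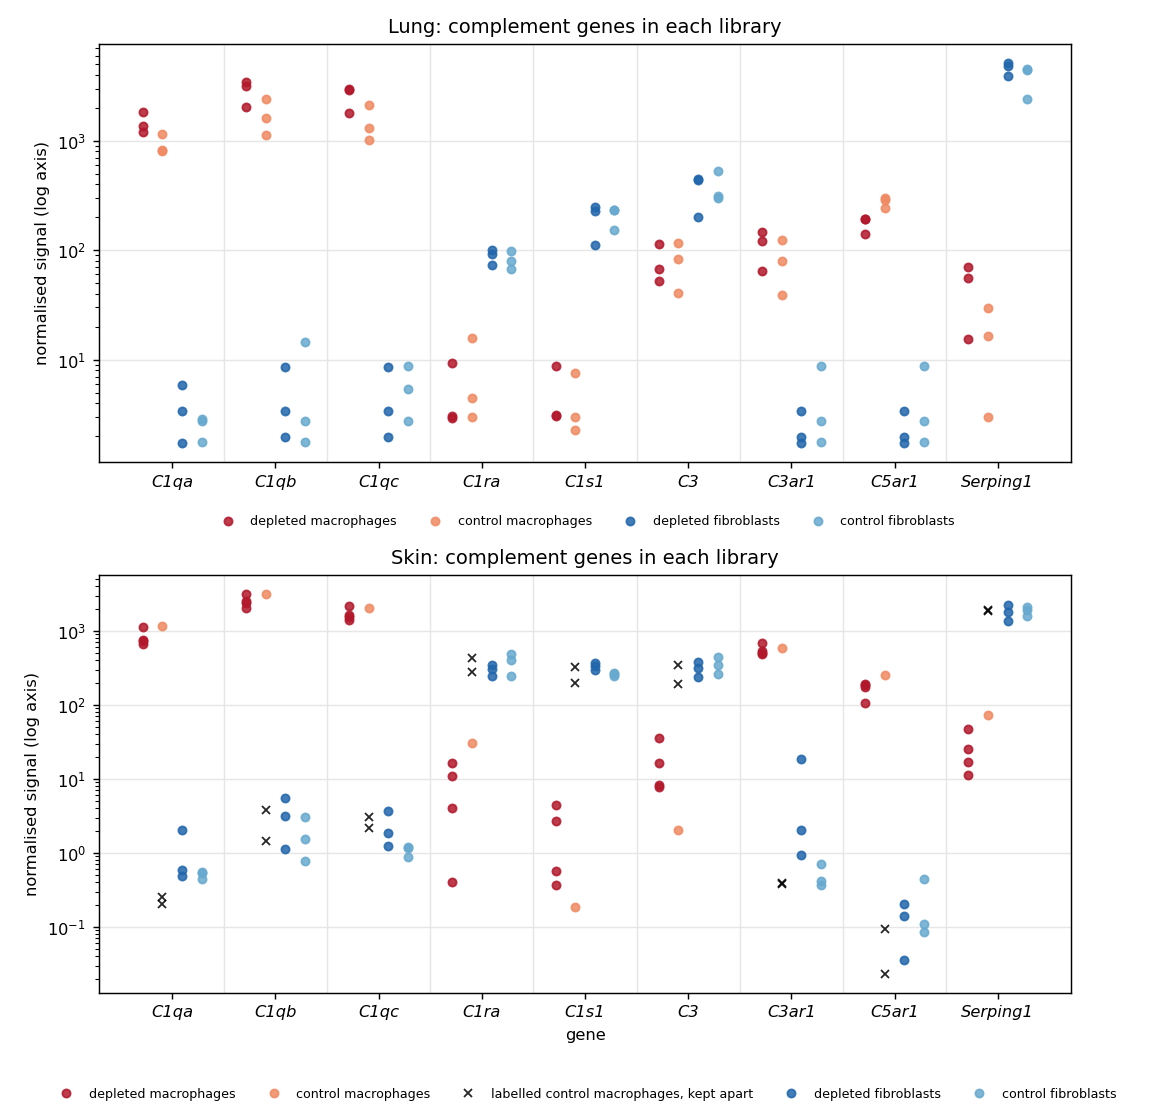
Normalised signal of each complement gene in each library, on a log axis, in lung (top) and skin (bottom). Points are libraries of depleted macrophages, control macrophages, depleted fibroblasts and control fibroblasts, and crosses are the 2 libraries labelled skin control macrophages that were kept apart. The C1q chains and the receptors are high in macrophages, the other 4 genes are high in fibroblasts, and the crosses lie with the fibroblasts.

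The C1q chains were the highest of the 9 genes in macrophages. In lung macrophages C1qb had signals of 3448, 2030 and 3183 in depleted mice and 1120, 2411 and 1616 in control mice. In lung fibroblasts it had 3.40, 1.94 and 8.63 in depleted mice and 2.73, 14.4 and 1.78 in control mice, which is at most 2 estimated reads in any library. Every macrophage library stood far above every fibroblast library, by 8.67 ± 0.34 on the log2 scale (SE, n = 6 each; limma, adjusted p = 1.01e-18). C1qc differed by 8.40 ± 0.30 (limma, adjusted p = 9.13e-20) and C1qa by 8.21 ± 0.29 (limma, adjusted p = 5.25e-20). C1qa was at 1 estimated read in total over the 6 lung fibroblast libraries, against 1431 in the 6 macrophage libraries, so its fold is set by few reads. Scaled to library size, that ratio was 1565, with an exact 95% Clopper-Pearson interval of 280 to 61847 that covers counting error only.

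The deeper skin libraries gave the same order of cell types. Both genotypes weigh equally in each skin difference between cell types. The 1 control macrophage library therefore counts as much as the 4 depleted ones together. C1qb had 2050, 2372, 3199 and 2536 in depleted skin macrophages and 3140 in the control library, against 5.49, 1.13 and 3.14 in depleted fibroblasts and 3.02, 1.52 and 0.766 in control fibroblasts. The difference was 9.78 ± 0.38 on the log2 scale (SE, n = 5 and 6; limma, adjusted p = 3.73e-09), and it was 9.51 ± 0.32 for C1qc (adjusted p = 1.31e-09) and 9.14 ± 0.38 for C1qa (adjusted p = 6.19e-09). C1qa had 666, 767, 1119 and 734 in depleted skin macrophages and 1157 in the control library, and at most 2.02 in any fibroblast library. No C1q chain overlapped between the cell types.

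The proteases ran the other way. C1s1, which encodes the protease that cleaves C4 and C2, had 3.08, 3.10 and 8.83 in depleted lung macrophages and 2.26, 7.49 and 2.97 in control ones. It had 112, 249 and 226 in depleted lung fibroblasts and 234, 154 and 232 in control ones, a difference of -5.24 ± 0.38 on the log2 scale (SE, n = 6 each; limma, adjusted p = 1.23e-12). The macrophage libraries held 3 estimated reads of C1s1 in total and the fibroblast libraries 278, a ratio of 84.7 with an exact 95% interval of 28.7 to 413 for counting error only. C1ra, which encodes the protease that activates C1s, had 3.08, 9.31 and 2.94 in depleted lung macrophages and 15.8, 4.49 and 2.97 in control ones, all below the fibroblast libraries. It averaged 6.44 ± 5.21 in lung macrophages and 85.01 ± 13.8 in lung fibroblasts (SD, n = 6 each), a log2 difference of -3.75 ± 0.43 (limma, adjusted p = 1.85e-08). Reads of C1ra and C1rb, and of C1s1 and its close copy C1s2, may have been split by the counting, so their levels are uncertain. C1rb, tested in lung, differed by -3.86 (limma, adjusted p = 1.38e-08).

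In skin fibroblasts both proteases were abundant. C1s1 had 0.566, 4.47, 2.66 and 0.370 in depleted skin macrophages and 0.183 in the control library, against 371, 333 and 295 in depleted fibroblasts and 245, 270 and 263 in control fibroblasts. C1ra had 0.404, 4.09, 16.2 and 11.04 in depleted skin macrophages and 31.0 in the control library, against 345, 243 and 304 in depleted fibroblasts and 247, 399 and 488 in control fibroblasts. Both were low in every macrophage library, with log2 differences of -7.39 ± 0.46 for C1s1 (SE; limma, adjusted p = 1.66e-07) and -4.54 ± 0.62 for C1ra (adjusted p = 1.31e-04). Leaving out the control macrophage library moved the C1ra difference to -5.57, and it remained called.

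C3, the central component, was the least divided of the fibroblast-high genes in lung. It had 52.3, 115 and 67.7 in depleted lung macrophages and 83.6, 40.5 and 116 in control ones, against 201, 441 and 451 in depleted fibroblasts and 314, 298 and 526 in control ones. The highest macrophage library stood below the lowest fibroblast library, and the log2 difference was -2.25 ± 0.28 (SE, n = 6 each; limma, adjusted p = 7.83e-08). The lung macrophage mean was 21.3% of the fibroblast mean for C3, 7.57% for C1ra, 2.30% for C1s1 and 0.756% for Serping1. For 15 fibroblast marker genes the same share had a median of 2.36% and a range of 0.967 to 19.9%. C3 alone stood above that range, at 21.3% against 19.9% for the highest marker. Of the 15 markers, 5 to 7 had 0 estimated reads in control lung macrophage libraries and 6 to 7 in depleted ones. Part of the low shares is therefore the offset of 0.5 reads. Lung epithelium genes made up 0.941 to 2.12% of the signal in depleted lung macrophages and 0.238 to 0.901% in control ones, and 0.197 to 0.556% in depleted fibroblasts and 0.0515 to 0.223% in control ones. Their part in the C3 signal was not tested.

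In skin C3 had 8.17, 7.78, 16.4 and 36.1 in depleted macrophages and 2.01 in the control library, against 311, 382 and 238 in depleted fibroblasts and 449, 263 and 347 in control ones. The gap was wide, -5.59 ± 0.43 on the log2 scale (SE, n = 5 and 6; limma, adjusted p = 1.12e-06). Leaving out the control macrophage library, which weighs as much as all depleted ones together, moved it to -4.34, and it remained called. Shares of linear means, by contrast, weigh each library alike. The skin macrophage mean was 4.25% of the fibroblast mean for C3, 3.72% for C1ra, 1.89% for Serping1 and 0.557% for C1s1. For 16 fibroblast marker genes the same share had a median of 1.56% and a range of 0.920 to 12.3%.

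Both peptide receptors were high in macrophages. C5ar1, the C5a receptor, had 194, 140 and 191 in depleted lung macrophages and 242, 298 and 288 in control ones, and 1.73 to 3.40 in depleted fibroblasts and 1.78 to 8.67 in control ones. The log2 difference between the cell types was 5.79 ± 0.37 (SE, n = 6 each; limma, adjusted p = 8.02e-14), and 1 read in total lay behind the fibroblast values. C3ar1, the C3a receptor, had 64.6, 146 and 121 in depleted lung macrophages and 79.1, 124 and 38.6 in control ones, and it had 1 estimated fibroblast read of its own, in the same library. Its log2 difference was 4.48 ± 0.46 (limma, adjusted p = 2.00e-09). From the reads, the ratio was 312 for C5ar1 and 128 for C3ar1, with exact 95% intervals of 55.5 to 12352 and of 22.5 to 5096 for counting error only.

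In skin C3ar1 had 532, 507, 490 and 686 in depleted macrophages and 595 in the control library. Skin fibroblasts had 2.02, 18.4 and 0.934 in depleted mice and 0.708, 0.417 and 0.369 in control mice, so 1 depleted library, replicate 4, stood above the others with 318 estimated reads. The log2 difference was 7.73 ± 0.59 (SE, n = 5 and 6; limma, adjusted p = 1.07e-06). It was 8.23 without that library and 6.83 without the control macrophage library. C5ar1 had 185, 105, 174 and 195 in depleted skin macrophages and 252 in the control library, against at most 0.441 in any fibroblast library, a log2 difference of 7.43 ± 0.50 (limma, adjusted p = 3.58e-07).

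Serping1 was the highest of the 9 genes in fibroblasts. It had 70.7, 15.5 and 55.9 in depleted lung macrophages and 29.4, 16.5 and 2.97 in control ones, against 5136, 3869 and 4794 in depleted fibroblasts and 4572, 4471 and 2419 in control ones. The log2 difference was -7.48 ± 0.34 (SE, n = 6 each; limma, adjusted p = 3.01e-17). In skin it had 25.6, 16.8, 48.0 and 11.2 in depleted macrophages and 72.1 in the control library, against 2224, 1808 and 1373 in depleted fibroblasts and 1603, 1905 and 2113 in control ones. Every fibroblast library again lay above every macrophage library, with a log2 difference of -5.47 ± 0.35 (SE, n = 5 and 6; limma, adjusted p = 2.56e-07). Leaving out the control macrophage library moved it to -6.26.

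**Figure D2:**
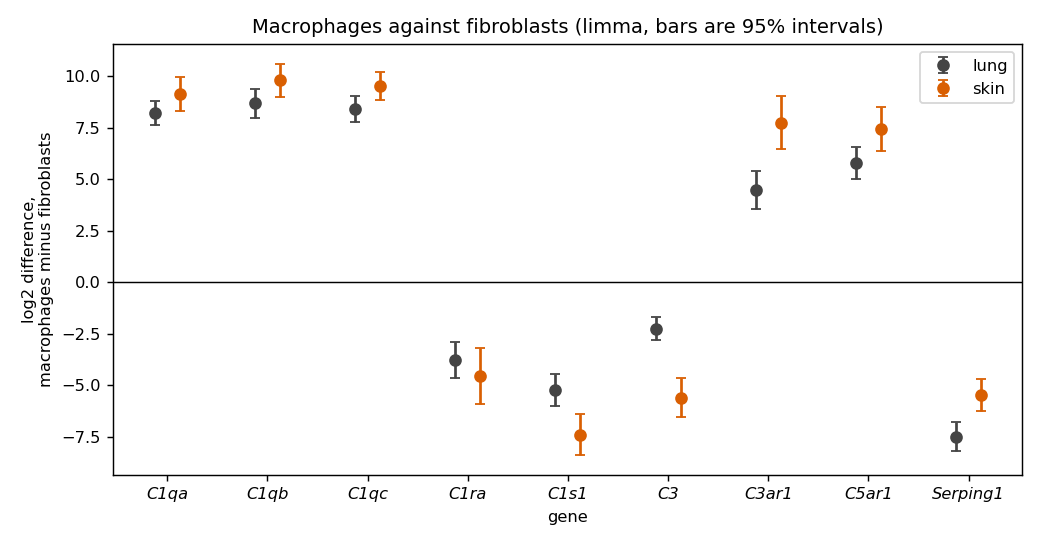
Log2 difference of each complement gene, macrophages minus fibroblasts, in lung and in skin, with 95% intervals from limma. The C1q chains, C3ar1 and C5ar1 lie above 0 and C1ra, C1s1, C3 and Serping1 below 0 in both organs, and C3 in lung lies nearest to 0 at -2.25.

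Other complement genes were also divided between the cell types. Of 46 further genes of the system, 25 were measured in lung, where 8 were higher in macrophages and 12 were lower at the same threshold, beside 18.5% higher and 18.1% lower of all genes. Their median log2 difference was -0.70, against -0.09 over all genes. Those with the lowest p were Itgb2 (5.94), Cfp (5.97), Itgam (5.53) and Itgax (4.51) on the macrophage side and C7 (-5.50), Cd59a (-4.28) and Colec12 (-3.86) on the fibroblast side. Cfp encodes properdin, which stabilises the alternative pathway convertase, and Cd59a encodes a membrane inhibitor of the terminal complex that C7 joins. Itgb2, Itgam and Itgax encode chains of the complement receptor integrins. Macrophages were sorted as cells with CD11b, the product of Itgam, and in lung as cells without CD11c, the product of Itgax. In skin 21 genes were tested, of which 7 were higher and 8 lower in macrophages, beside 13% higher and 14.2% lower of all genes, with a median log2 difference of -1.12 against -0.08 over all genes. Those with the lowest p were Cfp (9.10), Itgb2 (7.85), Itgam (6.97) and Cd93 (6.63) on the macrophage side and Colec12 (-4.28), Cd55 (-4.21), Cfb (-2.75) and Lrp1 (-1.36) on the fibroblast side.

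Signal per kilobase of transcript allowed genes to be ordered within a group. In depleted lung macrophages C1qb averaged 2654 ± 693 per kilobase, C1qc 2131 ± 546, C1qa 1412 ± 300 and C5ar1 69.7 ± 12.2 (SD, n = 3). Neighbouring chains overlapped in range, the order of the chains held in all 3 libraries, and all lay above C5ar1. In depleted skin macrophages C1qb averaged 2334 ± 445 per kilobase, C1qc 1416 ± 274, C1qa 790 ± 195, C3ar1 129 ± 20.9 and C5ar1 65.6 ± 16.2 (SD, n = 4), and none of these neighbours overlapped. Serping1 led fibroblasts, with 2680 ± 382 per kilobase in depleted lung fibroblasts and 2226 ± 708 in control ones (SD, n = 3 each), above the other complement genes followed here. C3 and C1s1 overlapped in lung fibroblasts, at 70.9 ± 27.6 and 66.9 ± 25.04 per kilobase in depleted mice and 73.8 ± 24.9 and 70.7 ± 15.6 in control mice.

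Ratios within a library do not depend on its scaling, and the order of the receptors differed between organs. The ratio of C3ar1 to C5ar1 per kilobase was 0.0782 to 0.609 in the 6 lung macrophage libraries and 1.38 to 2.81 in the 5 skin macrophage libraries, so C5ar1 was the higher one in every lung library and C3ar1 in every skin library. The ratio of Serping1 to C1s1 in fibroblasts was 17.8 to 77.9 in lung and 7.93 to 13.7 in skin, and that of Serping1 to C1ra was 42.8 to 116 in lung and 7.52 to 12.9 in skin. Among the C1q chains, C1qc stood at 0.739 to 0.839 of C1qb in lung macrophages and 0.591 to 0.625 in skin macrophages, or 0.461 to 0.523 and 0.368 to 0.389 if lengths are taken from all exons. The ratio of C1qb to C1qa was 1.29 to 2.40 in lung and 2.59 to 3.30 in skin. That of C1qc to C1qa was 1.05 to 1.84 in lung and 1.53 to 1.95 in skin, but 0.654 to 1.15 and 0.955 to 1.22 with lengths from all exons, so the order of C1qc and C1qa per kilobase depends on the length used. The organs were sorted by different gates and their tables were normalised separately, so these ranges are a description with no test.

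**Figure D3:**
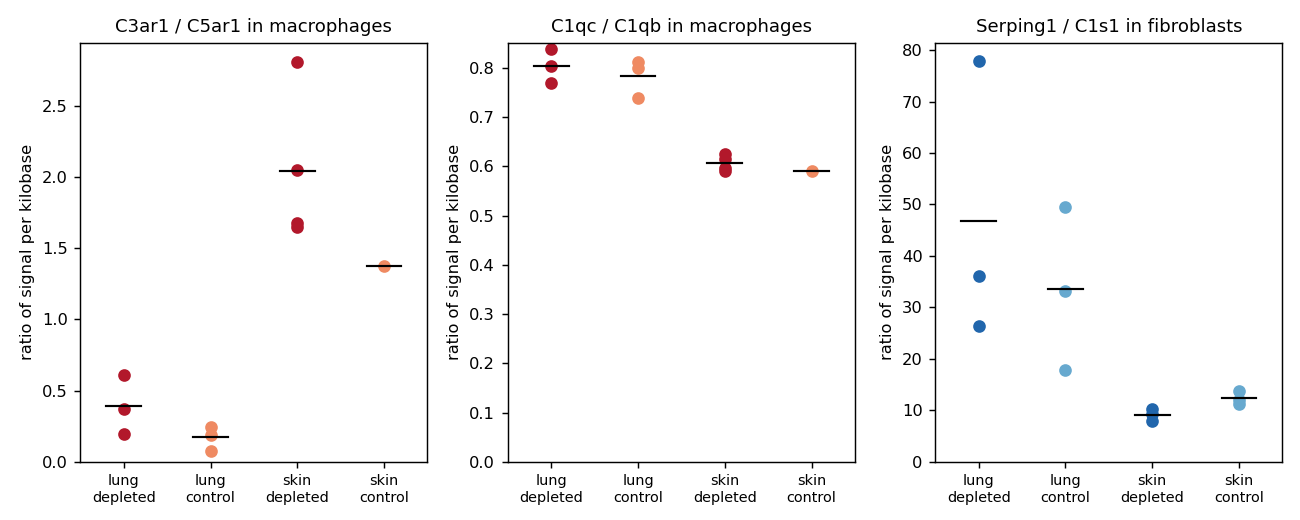
Ratios of signal per kilobase between 2 complement genes within a library (points) with the mean of each group (line), in lung and skin, depleted and control. The C3ar1 to C5ar1 ratio is 0.0782 to 0.609 in lung macrophages and 1.38 to 2.81 in skin macrophages, and the 2 organs do not overlap for any of the 3 ratios.

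The genes whose pattern over the 23 libraries not kept apart was most like each member were found by the root mean square difference of centred log2 signal among 9996 genes. Signal was centred over both cell types of an organ. The distances therefore include the difference between macrophages and fibroblasts, and likeness within a cell type was not measured. C1qb and C1qc were nearest to each other at 0.358, followed by H2-Ab1 for C1qb at 0.559 and C1qa for C1qc at 0.570. The nearest to C1qa were Wfdc17 (0.535) and Ccr2 (0.545), and C1qc came next at 0.570. The nearest to C5ar1 were Cytip (0.483) and Itgam (0.520), and to C3ar1 Trem2 (0.816) and Rgs1 (0.834). On the fibroblast side they were Mdk (0.589) and Maged1 (0.606) for C1ra, Nid1 (0.662) and Fbn1 (0.702) for C1s1, Pkia (0.580) and S1pr3 (0.645) for C3, and Mfap4 (0.657) and Inmt (0.770) for Serping1.

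Between depleted and control mice no complement gene passed the test in lung macrophages, where 0.497% of all genes did, 0.0674% as higher and 0.43% as lower in depleted mice. At an unadjusted p below 0.05 there were 5 of the 9, and 945 of 11867 genes in all. The 9 genes had a median log2 difference of 0.52, beside 0.04 over all genes. The C1q chains had higher means in depleted mice. C1qa had 1375, 1213 and 1817 in depleted lung macrophages against 828, 1164 and 799 in control ones, and the groups did not overlap. C1qa and C5ar1 were the 2 of the 9 genes without overlap, beside 12.2% of all genes tested. Its log2 difference was 0.66 ± 0.25 (SE, n = 3 each; limma, adjusted p = 0.412). C1qc had 2933, 1805 and 2953 in depleted lung macrophages against 1006, 2131 and 1321 in control ones. C1qb differed by 0.78 ± 0.27 (limma, adjusted p = 0.352) and C1qc by 0.82 ± 0.27 (limma, adjusted p = 0.280), and for both the groups overlapped, since control replicate 2 lay above depleted replicate 2.

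C5ar1 ran lower, with the values given above, and its groups did not overlap either, at -0.66 ± 0.28 (SE, n = 3 each; limma, adjusted p = 0.491). Serping1 differed by 1.64 ± 0.75 (limma, adjusted p = 0.573) on at most 7.33 estimated reads per library on average, with overlapping groups, and the difference was 0.82 without control replicate 3 and 2.29 without depleted replicate 2. C3 differed by 0.02 ± 0.41 and C3ar1 by 0.52 ± 0.40. C1ra and C1s1 rested on averages of at most 1.33 and 0.667 reads per library, too few to show a difference at this depth. The 95% interval reached from 0.16 to 1.16 for C1qa and from -1.22 to -0.11 for C5ar1. It reached from 0.23 to 1.34 for C1qb, 0.27 to 1.37 for C1qc and 0.13 to 3.16 for Serping1. For C1ra, C1s1, C3 and C3ar1 it held both signs. These intervals are per gene and are not adjusted for the number of genes tested.

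Genes of other cells moved with genotype in the same libraries. Of 13 neutrophil genes, 9 were lower in depleted lung macrophages at the threshold, and together they made up 0.167 to 0.195% of the signal in depleted libraries and 0.860 to 1.76% in control ones. S100a8 had 895, 1052 and 1175 in depleted libraries against 5155, 3741 and 10656 in control ones. The 16 macrophage marker genes made up 3.79 to 4.27% in depleted libraries and 2.45 to 3.81% in control ones, with a median log2 difference of 0.03 and none called, and 4 at an unadjusted p below 0.05. The 4 B cell genes made up 0.00805 to 0.0363% in depleted libraries and 0.0504 to 0.137% in control ones. Of these, 2 were called as lower and 4 had an unadjusted p below 0.05, with a median log2 difference of -2.01. The 3 dendritic cell genes made up 0.0781 to 0.140% in depleted libraries and 0.0471 to 0.0907% in control ones, with none called. Of 7 monocyte genes 6 had a higher estimate in depleted libraries and 1 was called as lower, with 5 at an unadjusted p below 0.05 and a median log2 difference of 0.60, and they made up 0.708 to 1.27% in depleted libraries and 0.589 to 1.07% in control ones. All 11 lung epithelium genes had a higher estimate in depleted libraries, and 3 were called as higher. Of the 11, 6 had an unadjusted p below 0.05, and their median log2 difference was 1.09. In bulk samples fewer cells of a type and less RNA per cell cannot be told apart, and the part of these genes in the C1q and C5ar1 values was not tested. Among the other 25 complement genes none was called, and 5 had an unadjusted p below 0.05. The lowest p belonged to C5ar2, a further C5a receptor, with 84.3, 86.7 and 117 in depleted libraries against 134, 208 and 219 in control ones, a log2 difference of -0.94 ± 0.32 (limma, adjusted p = 0.307), with no overlap. Next came Cfp at 0.77 and Cd59a at 1.40.

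**Figure D4:**
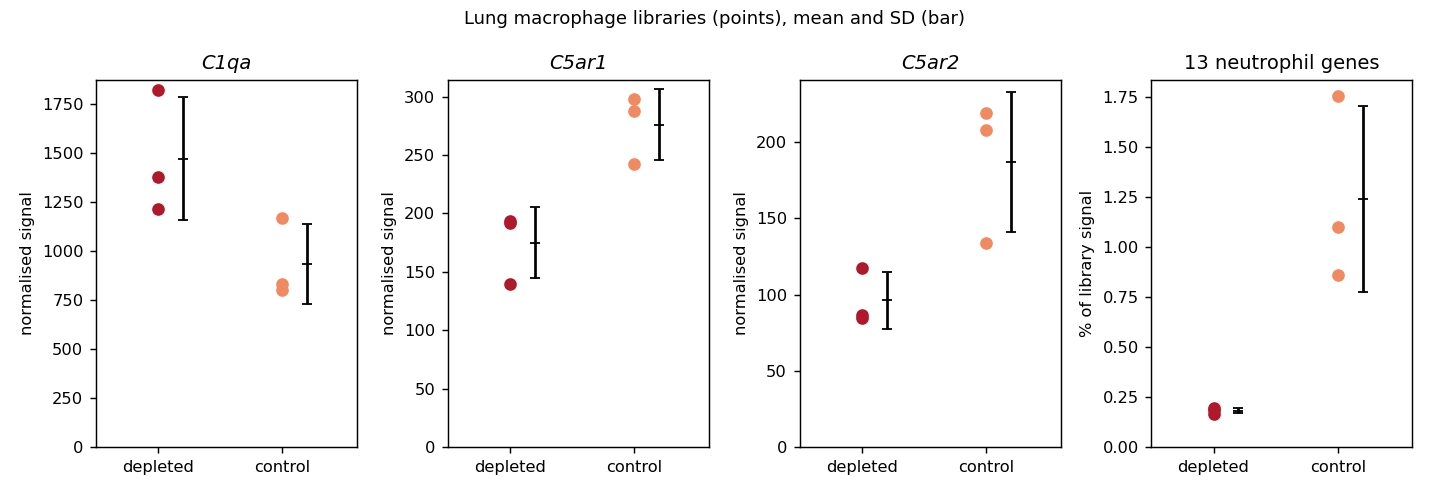
Lung macrophage libraries of depleted and control mice (points), with mean and SD (bars, n = 3 each), for the signal of C1qa, C5ar1 and C5ar2 and for the share of library signal held by 13 neutrophil genes. The groups do not overlap in any panel, and C5ar1, C5ar2 and the neutrophil share are lower in depleted libraries, at 0.167 to 0.195% for the share. None of C1qa, C5ar1 and C5ar2 passed the adjusted threshold, and 12.2% of all genes tested were without overlap.

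In lung fibroblasts no complement gene passed, and 0.00843% of all genes passed. None of the 9 had an unadjusted p below 0.05, beside 598 of 11867 genes in all. Serping1 averaged 4600 ± 656 in depleted fibroblasts and 3821 ± 1215 in control ones (SD, n = 3 each), a log2 difference of 0.32 ± 0.26 (limma, adjusted p = 0.987). C3, C1s1 and C1ra differed by -0.10 ± 0.27, -0.13 ± 0.29 and 0.13 ± 0.35, and all 4 overlapped. None of the 9 genes was without overlap, beside 9.2% of all genes tested. The other 5 genes averaged at most 0.667 estimated reads per library. Of the other complement genes none was called, 1 had an unadjusted p below 0.05, and the lowest p belonged to C7 (0.72), C2 (-0.90) and Cd55 (1.27). Of 11 lung epithelium genes 8 had a higher estimate in depleted fibroblasts, with a median log2 difference of 0.96. The list held the 1 gene called in this comparison, and 3 of its genes had an unadjusted p below 0.05. Of 16 macrophage marker genes 11 had a higher estimate, with none called. The part of these lists was not tested. The difference between the cell types in their response was tested in lung, where none of the 9 genes passed, and 0.0169% of all genes passed. None of the 9 had an unadjusted p below 0.05 there, beside 653 of 11867 genes in all. The lowest p was that of Serping1, with 1.35 ± 0.69 (limma, adjusted p = 0.876).

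**Figure D5:**
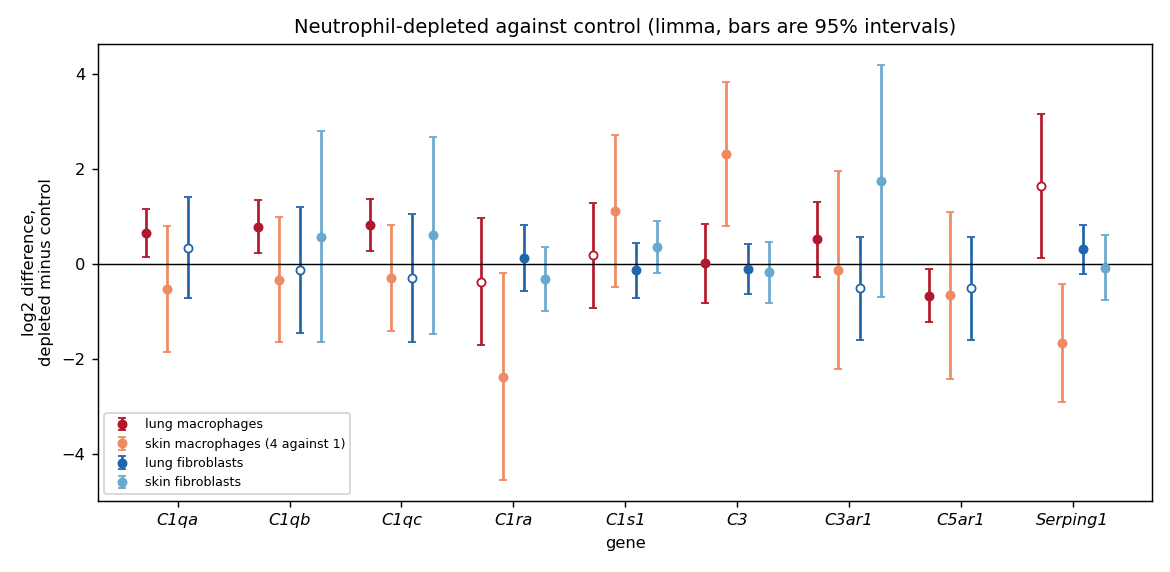
Log2 difference of each complement gene, depleted minus control, in 4 sorted populations, with 95% intervals from limma. Open symbols mark genes under 10 estimated reads per library on average in both groups, a limit chosen after the values were seen. No gene passed the adjusted threshold in any population. Skin macrophages compare 4 depleted libraries with 1 control library.

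In skin macrophages 4 depleted libraries were set against 1 control library, which was assumed to vary like the other groups. No complement gene passed, 3 had an unadjusted p below 0.05, and 0% of all genes passed, with 689 genes at an unadjusted p below 0.05. The median log2 difference of the 9 was -0.33, beside -0.06 over all genes. The 3 were C3 at 2.32 ± 0.70 (limma, adjusted p = 0.642), Serping1 at -1.66 ± 0.57 (adjusted p = 0.797) and C1ra at -2.37 ± 0.9999 (adjusted p = 0.860). For each of them the control library lay outside the range of the depleted ones, lowest for C3 and highest for Serping1 and C1ra. It lay outside that range for 6 of the 9 genes, beside 48.3% of all genes tested. The 16 fibroblast marker genes made up 0.0327 to 0.137% of the signal in depleted libraries and 0.213% in the control library, so it was also highest in fibroblast genes, and their part in the Serping1 and C1ra values was not tested. All 7 keratinocyte genes were lower in the depleted libraries, with none called and 0 at an unadjusted p below 0.05, and they made up 0.134 to 0.322% of the signal there and 0.5997% in the control library. Their part was not tested. Mast cell genes made up 0.000420 to 0.00902% in depleted libraries and 0.0335% in the control library. Other lists ran the other way. Monocyte genes made up 0.162 to 0.298% in depleted libraries and 0.128% in the control library. Macrophage marker genes made up 3.31 to 4.26% and 2.97%. The part of these lists was not tested. The C1q chains differed by -0.52 ± 0.61 for C1qa, -0.33 ± 0.61 for C1qb and -0.29 ± 0.51 for C1qc, and the receptors by -0.12 ± 0.96 for C3ar1 and -0.65 ± 0.81 for C5ar1. Among the other complement genes none was called, 3 had an unadjusted p below 0.05, and the lowest p belonged to C5ar2 (-2.65), C4b (3.13) and Cfb (1.55). C4b and its copy C4a can share reads.

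With the 2 kept-apart libraries counted as labelled, 6 of the 9 genes passed in this comparison, where 7.83% of all genes passed. The C1q chains and C3ar1 were then higher in depleted mice, beside 3.41% of all genes called higher, and C1ra and Serping1 lower, beside 4.42% called lower.

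In skin fibroblasts 7 of the 9 genes passed the filter on low values, all but C1qa and C5ar1, and none was called, with 0% of all genes called. None of the 7 had an unadjusted p below 0.05, and 282 of 11780 genes did. C1s1 averaged 333 ± 37.7 in depleted fibroblasts and 259 ± 12.9 in control ones (SD, n = 3 each), a log2 difference of 0.35 ± 0.25 (limma, adjusted p = 0.956), and its groups did not overlap. C1ra, C3 and Serping1 differed by -0.31 ± 0.31, -0.18 ± 0.30 and -0.07 ± 0.31, with overlapping groups. C1qc and C3ar1 were also without overlap, which made 3 of the 7 genes, beside 8.47% of all genes tested. Both were low in fibroblasts. C1qc had 1.25 to 3.72 in depleted and 0.879 to 1.19 in control fibroblasts, against a mean of 1773 in skin macrophages. C3ar1 averaged 7.13 and 0.498 in them, against 562 in skin macrophages. C3ar1 differed by 1.75 ± 1.11 (limma, adjusted p = 0.956), with most of its signal in depleted replicate 4. Keratinocyte genes made up 0.129, 1.56 and 1.51% of the signal in depleted replicates 2, 4 and 5 and 0.299, 0.434 and 0.419% in control replicates 3, 4 and 5. All 7 had a higher estimate in depleted fibroblasts, with none called, 1 at an unadjusted p below 0.05 and a median log2 difference of 0.87. The fibroblast marker genes made up 6.41 to 8.99% of the signal in depleted fibroblasts and 9.48 to 12.3% in control ones, and the part of either list in these values was not tested. Of the 14 other complement genes tested none was called, 1 had an unadjusted p below 0.05, and the lowest p belonged to Lrp1 (-0.72), Clu (0.62) and C1rl (-1.13).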

How the data were processed

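Sorted-cell RNA-seq was taken from 1 table per organ. The authors deposited normalised values, and these are used as a linear signal. The build mm10 and the tools RSEM 1.7.1, limma 3.46, CASAVA 1.8 and cutadapt 1.7.1 are named, without role or order, per the submitters' processing notes. How values were normalised and genes filtered is not given in the sources used here. Per the labels' protocols, cDNA was amplified with a kit for single cells before single-end sequencing. In each library a value is an estimated read number plus 0.5, times a constant. Within 0.01 reads, 70.0 to 82.2% of genes came out whole in lung libraries and 27.4 to 58.0% in skin libraries, so count models were not used, and intervals from reads cover counting error only.

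Signal was offset by 1 part in 1000000 of the average library total and log2-transformed, which understates changes of low genes, and tested two-sided with limma 3.58.1 under R 4.3.3, using moderated variances with a trend. Genes needed 1 part in 1000000 in at least 3 libraries, and p-values were adjusted over all genes of a fit by Benjamini-Hochberg. Cell types were compared over 12 lung and 11 skin libraries, weighting both genotypes equally. Tests stayed within a table. The fits were tested on simulated data, with large changes put into genes of higher signal. Such data do not show how well smaller changes, or changes of genes with few reads, are found. Alternatives were other pseudocounts, filters and scalings, no variance trend, a replicate block, 1 genotype only, the libraries as labelled, and leaving out each library. Named genes were the 9 members, gate genes, the other complement genes with the lowest p (up to 4 per direction when called, otherwise 3), S100a8, and the 2 most alike genes per member; 1 gene that this rule names is not reported here. Members and lists were chosen with earlier results of these data known. Lengths and coordinates are from GENCODE M21, and levels of different genes were compared per kilobase of mean transcript length.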

Additional observations from a re-analysis of the deposited data

Results flagged for a closer look

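The 2 libraries labelled skin control macrophages that were kept apart held fibroblast-high complement genes far above control replicate 3, the remaining library of that label. C1ra was at 282 in replicate 1 and 431 in replicate 5, against 31.0 in replicate 3. C1s1 was at 195 and 323, against 0.183, and C3 was at 194 and 346, against 2.01. Serping1 was at 1872 and 1911, against 72.1. These values lie in data that the comparisons above leave out, except where the libraries were counted as labelled. No separate test was made on them.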

How the results depend on the processing

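All 9 genes remained called between macrophages and fibroblasts in both organs under each alternative run and without each library. Giving all libraries equal totals moved the median of all genes from -0.09 to -0.46 in lung and from -0.08 to -0.37 in skin, and the share of called genes that were higher in macrophages was then 31.1% in place of 50.5% in lung and 36.0% in place of 47.8% in skin, with no gene of the 9 turning direction. In skin macrophages, depleted against control, the 13 libraries as labelled gave 6 of 9 called in place of 0, with log2 differences of 6.06 for C1qa, 6.23 for C1qb, 5.82 for C1qc, -4.04 for C1s1, -1.96 for C3, 5.72 for C3ar1 and 4.62 for C5ar1, all turned in direction, and -4.67 for C1ra and -4.79 for Serping1; this alternative adds the 2 fibroblast-like libraries to the controls. Equal totals gave -0.10 for C3 in lung macrophages. No other comparison of genotypes called any of the 9 under any alternative run. Leaving out 1 library turned the direction of uncalled differences, and the causes were not tested. In lung macrophages these ranged from -0.81 to 0.23 for C1ra, from -0.22 to 0.58 for C1s1 and from -0.40 to 0.34 for C3. In lung fibroblasts they ranged from -0.61 to 0.65 for C1qb, -0.783 to 0.0923 for C1qc, -0.35 to 0.22 for C1s1, -0.30 to 0.28 for C3, and -0.891 to 0.0272 for both C3ar1 and C5ar1. In skin fibroblasts they ranged from -0.371 to 0.0146 for C3 and from -0.24 to 0.11 for Serping1. For the difference of the responses in lung they ranged from -0.0114 to 0.643 for C1qa, -0.96 to 0.10 for C1ra, -0.0940 to 0.737 for C1s1, -0.30 to 0.44 for C3 and -0.69 to 0.20 for C5ar1. Over all genes, the 59 called in lung macrophages were 11 to 68 without 1 library and 0 to 80 under the other alternatives, the 1 in lung fibroblasts 0 to 7 and 0 to 4, the 2 of the response difference 1 to 6 and 0 to 6, the 0 in skin fibroblasts 0 to 16 and 0 to 87, the 0 in skin macrophages 0 to 1 and 0 to 985, the 4340 between lung cell types 4006 to 4159 and 2731 to 4984, and the 3398 between skin cell types 2896 to 3580 and 1983 to 3498. Deviations of same-numbered libraries had correlations from -0.0445 to 0.0376 in lung and from -0.0590 to 0.159 in skin. Differently numbered ones had -0.0492 to 0.0709 in lung and -0.173 to 0.188 in skin. Between skin macrophages and fibroblasts the highest was 0.159 with the same number and 0.0423 with different numbers. Numbers were not taken as pairs, but 2 same-numbered skin pairs of this kind are too few to settle it. With the replicate block 9 of 9 genes were called between cell types in both organs and 0 between genotypes, and no block could be fitted for skin macrophages, where 1 control library remains. Lung depth limits C1ra and C1s1 in macrophages, and C1q and the receptors in fibroblasts, to a few reads.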
